A study of Mus musculus with 4 samples.

Results

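Polycomb repressive complexes 1 and 2 (PRC1 and PRC2) and the enzymes that undo their marks were followed at the RNA level in mouse bone marrow stromal cells with and without Asxl1. The set was chosen by name, as 38 gene symbols for PRC1 and PRC2 subunits, their accessory proteins, H3K27 demethylases and the H2A deubiquitinase Usp16. All 38 had a single row in the deposited table, which holds 23997 symbols. All 38 also reached the mean of at least 1 FPKM (fragments per kilobase of transcript, scaled to the mapped fragments of the library) over the libraries that the test required, so no member was lost to that filter. RNA sequencing covered 4 libraries of MSPC (mesenchymal stem/progenitor cells), adherent stromal cells expanded in culture out of bone marrow: 2 of genotype Asxl1-/- and 2 wild type (WT), all on a C57BL/6 background and at passages 5 to 10 in MesenCult medium. The sources used here do not give age, sex or the way the Asxl1 allele was made. Each library has its own number in its title, but nothing in the labels says whether separate animals stand behind a group's libraries. A p-value thus measures only the spread between these samples, whose source is not given.

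Polycomb proteins keep developmental genes silent. PRC2 methylates histone H3 at K27 through Ezh1 or Ezh2, and PRC1 places ubiquitin on histone H2A through Rnf2 or Ring1. Canonical PRC1 reads the PRC2 mark with a CBX protein, while variant PRC1 carries Rybp or Yaf2 in its place. Asxl1 is the partner of Bap1, the enzyme that removes the PRC1 mark, and loss of ASXL1 in human blood cells is known to lower H3K27 methylation.

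The genotype and the make-up of the cultures were checked first. Asxl1 stood at 0.273 and 0.312 FPKM in Asxl1-/- libraries, against 14.6 and 11.2 FPKM in WT libraries, which follows the labels. Of 16 stromal markers, 15 had a mean of at least 1 FPKM. Of these, 6 were lower in both Asxl1-/- libraries and 2 higher, against 25.2% and 15.6% of all genes tested. An unadjusted limma p under 0.05 was reached by Nt5e (CD73), at 0.493 and 0.507 FPKM in Asxl1-/- libraries, against 2.31 and 7.19 FPKM in WT libraries, and by Fn1 (fibronectin), also lower. Others differed within a genotype, as did Ly6a (Sca-1), at 1059 and 184 FPKM in Asxl1-/- libraries, against 70.0 and 276 FPKM in WT libraries. The leptin receptor gene Lepr stayed at 0.0426 FPKM or less in every library. Summed over 21 macrophage markers, the level was 96.4 and 405 FPKM in Asxl1-/- replicates 1 and 2, against 11.6 and 601 FPKM in WT replicates 1 and 2, so it split the replicates and not the genotypes. Single genes carried much of it: Fcer1g gave 72.2 FPKM in Asxl1-/- replicate 1, and Lyz2 gave 293 FPKM in Asxl1-/- replicate 2 and 400 FPKM in WT replicate 2. Without these 2 genes, picked here because they were so high, the sum was 21.9 and 105 FPKM in Asxl1-/- replicates 1 and 2, against 8.72 and 188 FPKM in WT replicates 1 and 2. Markers of endothelium summed to at most 8.15 FPKM, with Emcn and Tie1 listed at 0 throughout, and those of erythroid and lymphoid cells to at most 0.381 FPKM. The WT libraries stood apart from each other in several measures, whose part in the results was not tested. WT replicate 2 had 40.9% of its summed FPKM in rows under 300 bp, against 21.4% to 24.9% in the other libraries. Pdgfra, a stromal receptor, stood at 58.8 and 63.0 FPKM in Asxl1-/- libraries, against 80.9 FPKM in WT replicate 1 and 4.78 FPKM in WT replicate 2. Cdkn2a, a cell cycle inhibitor and Polycomb target, stood at 125 and 234 FPKM in Asxl1-/- libraries, against 766 FPKM in WT replicate 1 and 82.3 FPKM in WT replicate 2. Xist, the RNA that coats the silenced X chromosome, stood at 106 and 94.9 FPKM in Asxl1-/- libraries, against 0.0277 FPKM in WT replicate 1 and 106 FPKM in WT replicate 2, and 4 Y-linked genes were listed at 0 in all libraries. In bulk RNA, fewer cells of a type and less RNA per cell cannot be told apart.

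No Polycomb gene passed the test across the whole table. At an adjusted p under 0.05 in limma, 0 of 38 members were called in either direction, where 0 of 11481 genes (0%) were called higher and 3 (0.0261%) lower in Asxl1-/-. Asxl1 itself, with a log2 fold change of -3.41, had an adjusted limma p of 0.215 and was not called either. At an unadjusted p under 0.05 there was 1 higher member, Pcgf5, and 1 lower member, Ezh2, where 2.51% of all genes were higher and 5.41% lower. For 4 members both Asxl1-/- values exceeded both WT values (Pcgf5, Bcor, Bmi1 and Kdm6a), against a background of 15.6% of genes. For 8 members they were below both WT values (Ezh2, Scml2, Aebp2, Cbx7, Phc1, Phf1, Phc3 and Suz12), against a background of 25.2%. As shares of the 38 members these are 10.5% and 21.1%, under the background on this scale. The share above turned with the scaling: it was 21.1% after median ratio scaling, against 20.1% of all genes, and 26.3% after quantile normalization, against 20.6% of all genes. The share below was 15.8% under both, against 20.8% and 20.1% of all genes. The median log2 fold change over the members was -0.04, against -0.07 over all genes tested, and for 26 of the 38 the size of the fold change was under 0.3. Fold changes are Asxl1-/- minus WT on the log2(FPKM + 1) scale, which understates differences of low genes. With 2 libraries per group the intervals are wide: the limma 95% interval of the fold change excluded 0 for Ezh2 and Pcgf5, and for 21 members it took in changes of 0.5 in both directions. The authors' deposited table marks 0 of the 38 as significant, where it marks 0.543% of 12881 tested entries as higher and 0.396% as lower. At an unadjusted p under 0.05 that table holds 1 member, Ezh2, which is lower, against 3.22% of entries higher and 4.11% lower. The sign of the fold change was the same in that table and in the limma fit for 33 of 38 members, from the same libraries.

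**Figure D1:**
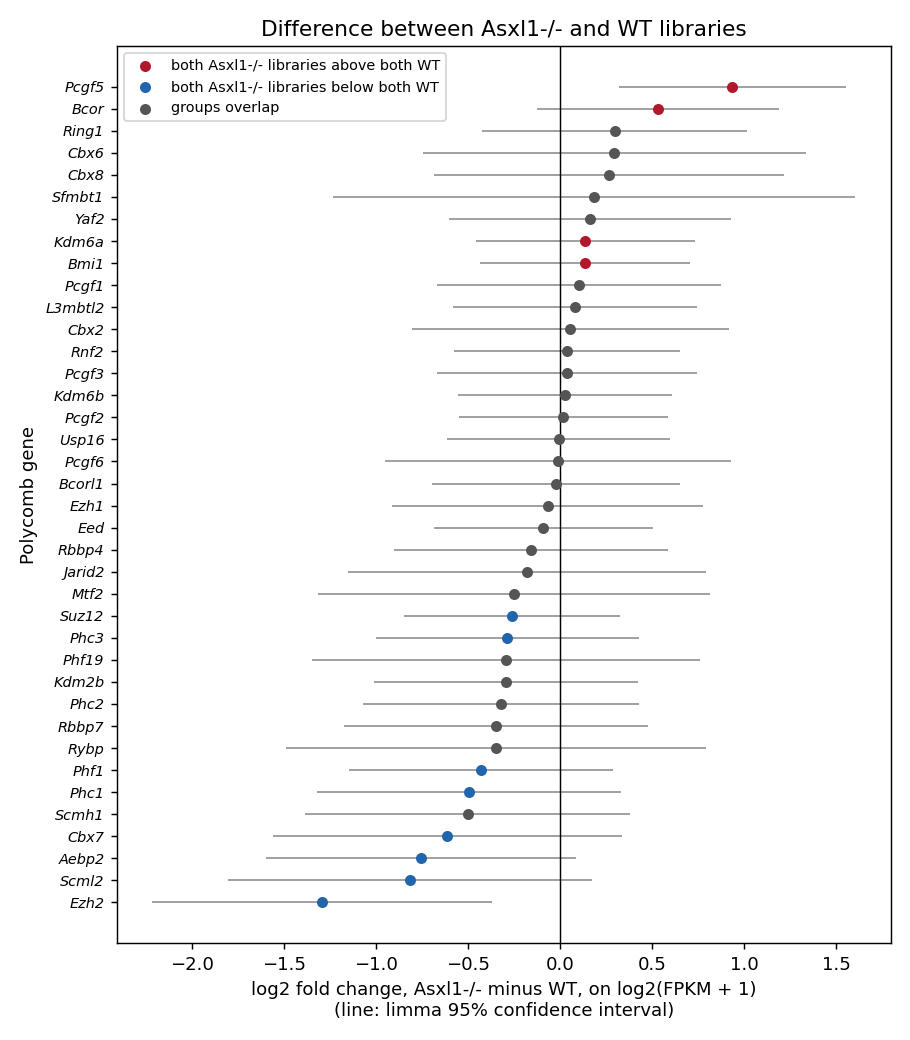
Log2 fold change (horizontal axis, Asxl1-/- minus WT on log2(FPKM + 1)) of each of the 38 Polycomb genes (vertical axis), with the limma 95% interval as a line and the colour giving whether the libraries of the groups overlap. Pcgf5 at 0.94 and Ezh2 at -1.29 are at the ends, and the other 36 intervals include 0.

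Levels were spread over a wide range (FPKM is per length, so genes can be set against each other). The histone chaperone Rbbp7 had the highest mean, 132 FPKM, followed by Cbx6 at 43.2, Aebp2 at 40.6 and Bmi1 at 34.1 FPKM. Phf19 at 1.35, Scml2 at 1.43, Cbx7 at 1.76 and Sfmbt1 at 1.95 FPKM had the lowest means. The median member level was 8.39 FPKM, against 10.7 FPKM over all genes tested. Most members differed little between replicates: the pooled within-group SD had a median of 0.25 on the log2 scale over members and 0.30 over all genes tested. The replicates of Asxl1-/- were over 2-fold apart for 0 members, against 15.8% of all genes tested, and those of WT for 2 members, Mtf2 and Sfmbt1, against 18.7%. WT replicate 1 had the highest value for 18 of 38 members (47.4%), where it was highest for 37.4% of all genes tested, and Asxl1-/- replicate 1 was highest for 4.

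**Figure D2:**
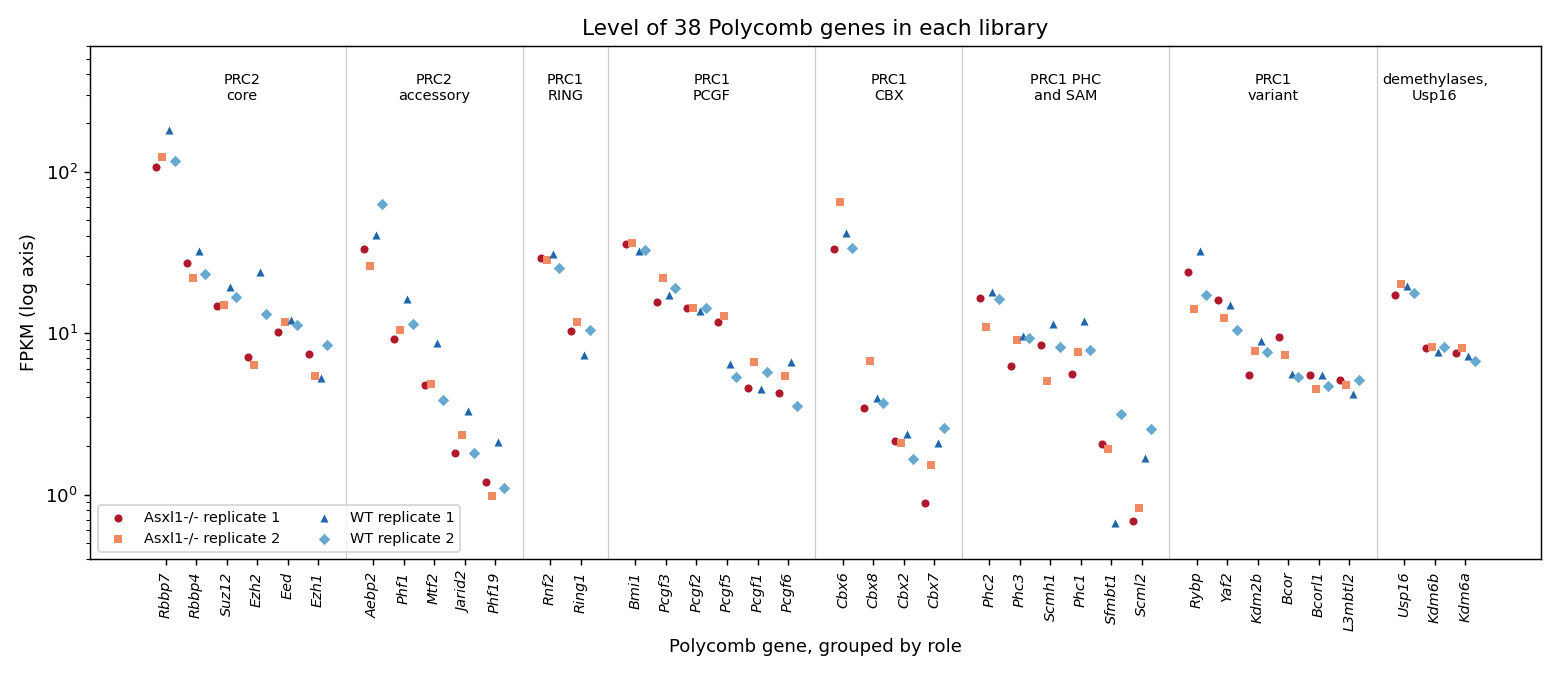
FPKM (log axis) of 38 Polycomb genes in each of the 4 libraries, grouped by role and sorted by mean level within a role, with Asxl1-/- in red tones and WT in blue tones. Ezh2 and Pcgf5 show the groups apart, and most other genes show the 4 libraries mixed.

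PRC2 core genes had negative fold changes for 6 of 6 members, but Ezh1, Eed and Rbbp4 were near 0 and changed sign with the setting. The count was 5 of 6 under median ratio scaling, quantile normalization, removal of chromosome medians and each fit without a library, and 4 of 6 in the authors' deposited table. The groups overlapped for 4 of the 6. The other 2, Ezh2 and Suz12, were lower, against 25.2% of all genes tested, whose median fold change was itself -0.07. Ezh2, the main methyltransferase of dividing cells (mm10 chr6:47530274-47595030, minus strand), stood at 7.06 and 6.30 FPKM in Asxl1-/- libraries, against 24.0 and 13.1 FPKM in WT libraries. Both Asxl1-/- values were close together and under the lower WT value, and the WT values were further apart. Ezh2 averaged 6.68 ± 0.537 FPKM in Asxl1-/- and 18.6 ± 7.70 FPKM in WT libraries (SD, n = 2 each), a ratio of 0.36. On the log2 scale the difference was -1.29 (standard error 0.35, limma adjusted p = 0.552), lower in 2 of 2 libraries. Leaving out WT replicate 1 gave -0.88, leaving out WT replicate 2 gave -1.70, and the unadjusted limma p stayed under 0.05 in both fits. It was -1.36 without Asxl1-/- replicate 1 and -1.22 without Asxl1-/- replicate 2, and there the unadjusted limma p was above 0.05. In the authors' deposited table the gene has a log2 fold change of -1.35 with a p of 0.0222 and a q of 0.48.

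Ezh1, the paralog that predominates in resting cells (chr11:101191115-101226450), stood at 7.39 and 5.45 FPKM in Asxl1-/- libraries, against 5.30 and 8.42 FPKM in WT libraries. The groups overlapped, with a log2 fold change of -0.07 (95% interval -0.91 to 0.78). Ezh2 made up a smaller share of the summed Ezh1 and Ezh2 level in Asxl1-/-, at 48.9% and 53.6%, against 81.9% and 60.9% in WT libraries. The ratio of Ezh2 to Ezh1 was 0.956 and 1.16 in Asxl1-/- libraries, against 4.53 and 1.56 in WT libraries. In the pair of libraries with few macrophage transcripts (Asxl1-/- replicate 1 and WT replicate 1) the share differed by -33.0 percentage points, and in the pair with many (replicate 2 of each genotype) by -7.25 points. With 2 against 2 libraries an exact two-sided permutation test cannot give a p under 0.333, and none was used for such shares.

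The other core subunits had fold changes between -0.35 and -0.09. Suz12, which holds the complex together (chr11:79993106-80034123), stood at 14.7 and 15.0 FPKM in Asxl1-/- libraries, against 19.2 and 16.8 FPKM in WT libraries. The groups did not overlap, but the difference was small (-0.26, 95% interval -0.85 to 0.33). Eed, which binds the methylated tail and stimulates the enzyme, stood at 10.1 and 11.7 FPKM in Asxl1-/- libraries, against 12.1 and 11.1 FPKM in WT libraries, with overlap. The histone-binding subunit Rbbp4, shared with other chromatin complexes, stood at 27.3 and 21.9 FPKM in Asxl1-/- libraries, against 32.3 and 23.2 FPKM in WT libraries. Its paralog Rbbp7 stood at 107 and 123 FPKM in Asxl1-/- libraries, against 181 and 117 FPKM in WT libraries, so only WT replicate 1 was apart. Rbbp7 gave 79.7% to 84.9% of the summed level of that pair in all 4 libraries.

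Ezh2 and genes of the cell cycle were both lower in the Asxl1-/- libraries and highest in WT replicate 1. Ezh2 and PRC2 genes are known targets of E2F factors, which drive genes of replication. On log2(FPKM + 1), the distance of Ezh2 from the mean of the 4 libraries was -0.57 and -0.72 in Asxl1-/- replicates 1 and 2, against 1.06 and 0.23 in WT replicates 1 and 2. The median distance of 30 tested proliferation genes was -0.56 and -0.52 in Asxl1-/- replicates 1 and 2, against 0.85 and 0.25 in WT replicates 1 and 2. Both put WT replicate 1 highest, WT replicate 2 next and the Asxl1-/- libraries below, but Ezh2 was lowest in Asxl1-/- replicate 2 and the proliferation median in Asxl1-/- replicate 1. WT replicate 1 was also the highest library for 37.4% of all genes tested. In that list 28 of 30 genes were lower in both Asxl1-/- libraries, against 25.2% of all genes tested. There 0 passed the adjusted limma threshold. An unadjusted limma p under 0.05 was found for 21, all lower, where 5.41% of all genes tested were lower. Among these lower genes Cenpe, a kinesin of the kinetochore, stood at 2.74 and 3.64 FPKM in Asxl1-/- libraries, against 13.9 and 9.53 FPKM in WT libraries. The 1 gene of the list with a positive fold change (0.07) was the E2F factor E2f1. It stood at 18.2 and 15.8 FPKM in Asxl1-/- libraries, against 17.4 and 15.0 FPKM in WT libraries. The part of proliferation in the Ezh2 difference was not tested. WT replicate 1 was the highest library for 18 of the 38 members, Suz12, Eed, Rbbp4 and Rbbp7 among them, and not for Ezh1, Pcgf5 and Bmi1.

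**Figure D3:**
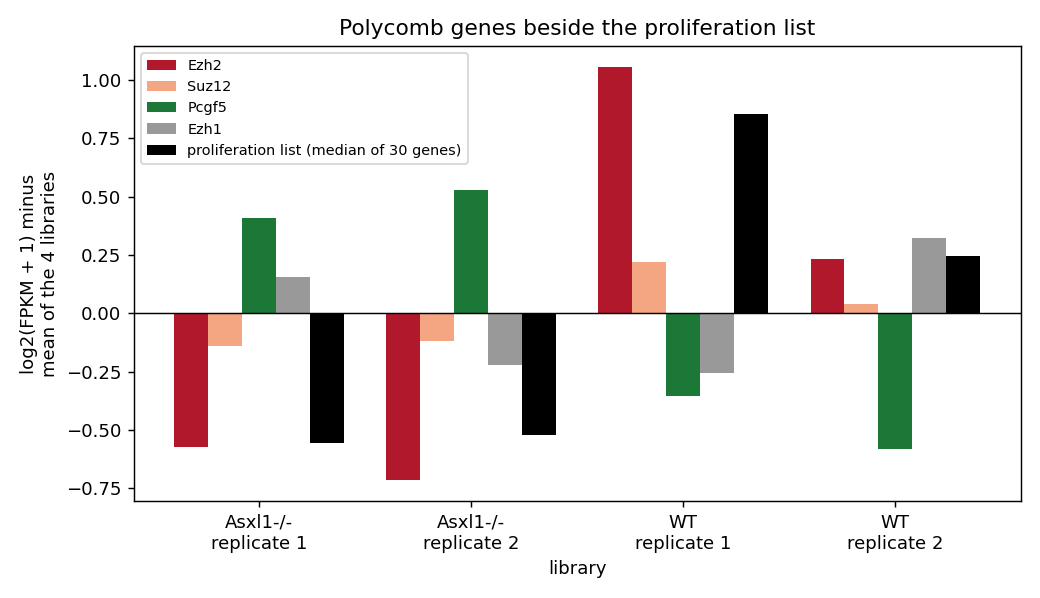
Difference of log2(FPKM + 1) from the mean of the 4 libraries (vertical axis) for Ezh2, Suz12, Pcgf5, Ezh1 and the median of 30 proliferation genes, in each library. Ezh2 and the proliferation median are both highest in WT replicate 1, at 1.06 and 0.85, and under 0 in both Asxl1-/- libraries.

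The stretch around the start of Ezh2, Ezh1 and Suz12 shows how the promoters differ in the E2F-type letters TTTCCCGC and TTTGGCGC, searched on both strands. Each line runs 5′ to 3′ on the strand of the gene, from 250 bases before the RefSeq start to 20 bases after it on GRCm38.p6 (mm10), with a match in capitals.
Ezh2, chr6:47595011-47595280, minus strand: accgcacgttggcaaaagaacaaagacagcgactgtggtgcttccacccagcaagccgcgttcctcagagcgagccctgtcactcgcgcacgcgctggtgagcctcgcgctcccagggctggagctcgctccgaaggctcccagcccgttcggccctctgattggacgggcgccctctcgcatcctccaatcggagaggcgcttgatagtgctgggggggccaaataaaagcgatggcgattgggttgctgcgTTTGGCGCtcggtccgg
Ezh1, chr11:101226444-101226713, minus strand: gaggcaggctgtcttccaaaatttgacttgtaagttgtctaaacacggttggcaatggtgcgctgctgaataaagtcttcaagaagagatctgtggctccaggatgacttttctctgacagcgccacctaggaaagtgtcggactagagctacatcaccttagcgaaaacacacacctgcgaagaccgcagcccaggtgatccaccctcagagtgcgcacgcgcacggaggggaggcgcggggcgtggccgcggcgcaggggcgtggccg
Suz12, chr11:79992856-79993125, plus strand: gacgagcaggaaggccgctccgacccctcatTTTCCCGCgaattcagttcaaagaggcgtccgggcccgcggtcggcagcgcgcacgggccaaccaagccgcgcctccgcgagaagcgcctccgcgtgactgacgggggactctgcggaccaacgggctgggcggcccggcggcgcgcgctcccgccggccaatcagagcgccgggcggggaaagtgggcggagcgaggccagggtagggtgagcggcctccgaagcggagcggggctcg
In Ezh2 the match TTTGGCGC begins at position 4 from the start, and in Suz12 the match TTTCCCGC begins at position -219. These Ezh1 letters hold none, and neither did the same stretch of the core gene Eed, not printed. RefSeq promoters were found for 33 of the 38 members. Of their 46 promoters, 3 (6.52%) held a match, those of Ezh2, Suz12 and Phf19, compared with 1.56% of all 32851 promoters and 2.99% of promoters of the genes tested. A match is a description of letters and not a bound site. Member promoters were rich in CpG, with a median observed over expected ratio of 0.783, close to the 0.764 of all genes tested and above the 0.384 of all promoters.

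PRC2 accessory genes, which target the complex to chromatin, had negative fold changes for 5 of 5 members (4 after quantile normalization and 3 to 5 with a library left out). The groups did not overlap for 2, both lower, against 25.2% of all genes tested, whose median fold change was itself -0.07. Aebp2, which joins PRC2 together with Jarid2 and helps it bind nucleosomes, stood at 33.3 and 25.9 FPKM in Asxl1-/- libraries, against 40.4 and 62.7 FPKM in WT libraries. The fold change was -0.76 (standard error 0.32, limma adjusted p = 0.632), and here WT replicate 2 was the high library. Leaving out WT replicate 1 gave -1.07, and leaving out WT replicate 2 gave -0.45. Phf1, a Polycomb-like protein that binds methylated H3K36 and CpG-rich DNA, stood at 9.24 and 10.4 FPKM in Asxl1-/- libraries, against 16.2 and 11.3 FPKM in WT libraries. Its relative Mtf2 stood at 4.76 and 4.82 FPKM in Asxl1-/- libraries, against 8.73 and 3.87 FPKM in WT libraries, so the WT values lay on both sides. Phf19, the third of this family, stood at 1.20 and 0.978 FPKM in Asxl1-/- libraries, against 2.11 and 1.10 FPKM in WT libraries. Jarid2, a DNA-binding cofactor, stood at 1.80 and 2.35 FPKM in Asxl1-/- libraries, against 3.28 and 1.80 FPKM in WT libraries. In Phf1, Mtf2, Phf19 and Jarid2 alike WT replicate 1 was the highest library, and the groups overlapped in all of these but Phf1.

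The ligases at the core of PRC1 had overlapping groups. Rnf2 (Ring1B), its main ubiquitin ligase, stood at 29.3 and 28.2 FPKM in Asxl1-/- libraries, against 30.7 and 25.4 FPKM in WT libraries (0.04, 95% interval -0.57 to 0.66). The paralog Ring1 stood at 10.3 and 11.8 FPKM in Asxl1-/- libraries, against 7.27 and 10.5 FPKM in WT libraries. Rnf2 gave 70.6% to 80.8% of the summed level of the pair, highest in WT replicate 1.

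Each PRC1 particle has a single PCGF protein, which defines its type. Pcgf5, a subunit of a variant PRC1 that takes part in X inactivation in mouse cells (chr19:36379067-36456204), stood at 11.6 and 12.7 FPKM in Asxl1-/- libraries, against 6.42 and 5.35 FPKM in WT libraries. Replicates were close in both groups, and the lower Asxl1-/- value was above the higher WT value. Pcgf5 averaged 12.2 ± 0.749 FPKM in Asxl1-/- and 5.89 ± 0.757 FPKM in WT libraries (SD, n = 2 each), a ratio of 2.07. On the log2 scale the difference was 0.94 (standard error 0.23, limma adjusted p = 0.538), higher in 2 of 2 libraries. With a library left out it ran from 0.83 to 1.05. The unadjusted limma p then stayed under 0.05 without WT replicate 1 and was above it without WT replicate 2, Asxl1-/- replicate 1 or Asxl1-/- replicate 2. In the authors' deposited table Pcgf5 has a log2 fold change of 1.17 with a p of 0.103 and a q of 0.886.

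Its share of the summed PCGF level was 13.6% and 13.1% in Asxl1-/- libraries, against 7.96% and 6.65% in WT libraries. The difference was 5.60 points in the pair with few macrophage transcripts and 6.44 points in the pair with many. Bmi1 (Pcgf4), the subunit of canonical PRC1 known for stem cell self-renewal, stood at 35.4 and 36.1 FPKM in Asxl1-/- libraries, against 32.2 and 32.7 FPKM in WT libraries. The groups did not overlap, yet the fold change was only 0.14 (95% interval -0.44 to 0.71), and Bmi1 remained the largest of the 6 in each library, with 37.2% to 41.3% of the level. Pcgf2 (Mel18), the other canonical subunit, stood at 14.3 and 14.2 FPKM in Asxl1-/- libraries, against 13.7 and 14.3 FPKM in WT libraries. Pcgf3, closest in sequence and partners to Pcgf5, stood at 15.6 and 22.0 FPKM in Asxl1-/- libraries, against 17.2 and 18.9 FPKM in WT libraries, with overlap. Pcgf1, the subunit found with Bcor and Kdm2b, and Pcgf6, that of the complex with L3mbtl2, lay between 3.52 and 6.62 FPKM in all libraries, and their groups overlapped.

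CBX readers dock canonical PRC1 on methylated H3K27. Cbx6 gave 80.8% to 86.3% of the summed level of the 4 CBX genes taken here. It stood at 33.0 and 64.5 FPKM in Asxl1-/- libraries, against 41.9 and 33.5 FPKM in WT libraries, so Asxl1-/- replicate 2 alone was high. Cbx7, known for holding stem and progenitor cells in an immature state, stood at 0.882 and 1.51 FPKM in Asxl1-/- libraries, against 2.08 and 2.58 FPKM in WT libraries. Its share of the CBX level was 2.23% and 2.02% in Asxl1-/- libraries, against 4.14% and 6.23% in WT libraries. The groups overlapped in neither measure, and the 95% interval of the log2 difference included 0 (-0.61, standard error 0.36, limma adjusted p = 0.697). Cbx2, which compacts nucleosomes, and Cbx8 are neighbours on chromosome 11 (chr11:119023029-119031270 and chr11:119038436-119040913). Cbx2 stood at 2.14 and 2.08 FPKM in Asxl1-/- libraries, against 2.38 and 1.65 FPKM in WT libraries. Cbx8 stood at 3.41 and 6.68 FPKM in Asxl1-/- libraries, against 3.97 and 3.71 FPKM in WT libraries, again with Asxl1-/- replicate 2 alone high.

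PHC proteins and their SAM-domain relatives polymerise and cluster PRC1. Negative fold changes were found for 5 of the 6 (4 with chromosome medians removed, and 5 or 6 with a library left out). Without overlap 3 of the 6 were lower, against 25.2% of all genes tested, whose median fold change was itself -0.07. Phc1 stood at 5.60 and 7.68 FPKM in Asxl1-/- libraries, against 11.9 and 7.81 FPKM in WT libraries. Phc2, the most abundant of the PHC genes, stood at 16.5 and 11.0 FPKM in Asxl1-/- libraries, against 18.0 and 16.2 FPKM in WT libraries. Phc3 stood at 6.21 and 9.09 FPKM in Asxl1-/- libraries, against 9.53 and 9.27 FPKM in WT libraries. For Phc1 and Phc3 the groups did not overlap, but Asxl1-/- replicate 2 was nearly level with WT replicate 2. Phc3 is on chromosome 3, whose tested genes had a median distance from the mean of the libraries of -0.44 in Asxl1-/- replicate 1 and 0.42 in WT replicate 1. With each library's chromosome medians removed, the Phc3 fold change was 0.21, in place of -0.29.

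Scml2, a SAM-domain partner of PRC1 on the X chromosome (chrX:161162750-161258213), was low in all libraries. It stood at 0.689 and 0.823 FPKM in Asxl1-/- libraries, against 1.68 and 2.54 FPKM in WT libraries, with no overlap (-0.81, standard error 0.37, limma adjusted p = 0.632). With a pseudocount of 0.1 the fold change was -1.35, and in the authors' deposited table it is -1.38. The unadjusted limma p was above 0.05, and fell under it with no filter and with no variance trend. Scmh1 stood at 8.40 and 5.03 FPKM in Asxl1-/- libraries, against 11.3 and 8.22 FPKM in WT libraries, where the groups overlapped slightly. Sfmbt1, an MBT-domain relative, had its widest gap within WT, at 2.06 and 1.92 FPKM in Asxl1-/- libraries, against 0.668 and 3.14 FPKM in WT libraries.

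Among the variant PRC1 subunits Bcor stood apart. Bcor, the corepressor of the Pcgf1 complex (chrX:12036738-12160355), stood at 9.45 and 7.30 FPKM in Asxl1-/- libraries, against 5.56 and 5.31 FPKM in WT libraries. The groups did not overlap (0.53, standard error 0.25, limma adjusted p = 0.632), and with a library left out the fold change ran from 0.37 to 0.70. The unadjusted limma p was under 0.05 only with chromosome medians removed, where the fold change was 0.65. Its paralog Bcorl1 stood at 5.53 and 4.53 FPKM in Asxl1-/- libraries, against 5.49 and 4.73 FPKM in WT libraries. Bcor thus held 63.1% and 61.7% of the pair in Asxl1-/- libraries, against 50.3% and 52.9% in WT libraries. Both genes are on the X chromosome, and Xist was near 0 only in WT replicate 1. The share differed by 12.8 points between replicate 1 of each genotype and by 8.84 points between replicate 2 of each. The part of the X chromosome in this was not tested.

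Rybp and Yaf2 compete for the same site on the RING ligases. Rybp stood at 23.9 and 14.0 FPKM in Asxl1-/- libraries, against 32.3 and 17.2 FPKM in WT libraries. Yaf2 stood at 16.1 and 12.4 FPKM in Asxl1-/- libraries, against 15.0 and 10.4 FPKM in WT libraries. Levels of both overlapped between the groups and were higher in the libraries low in macrophage markers, but the share of Rybp did not overlap, at 59.8% and 53.1% in Asxl1-/- libraries, against 68.4% and 62.3% in WT libraries. Kdm2b, which brings PRC1 to unmethylated CpG islands, stood at 5.51 and 7.75 FPKM in Asxl1-/- libraries, against 8.97 and 7.59 FPKM in WT libraries. L3mbtl2, a reader in the Pcgf6 complex, stood at 5.13 and 4.80 FPKM in Asxl1-/- libraries, against 4.20 and 5.09 FPKM in WT libraries, with overlap in both genes.

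**Figure D4:**
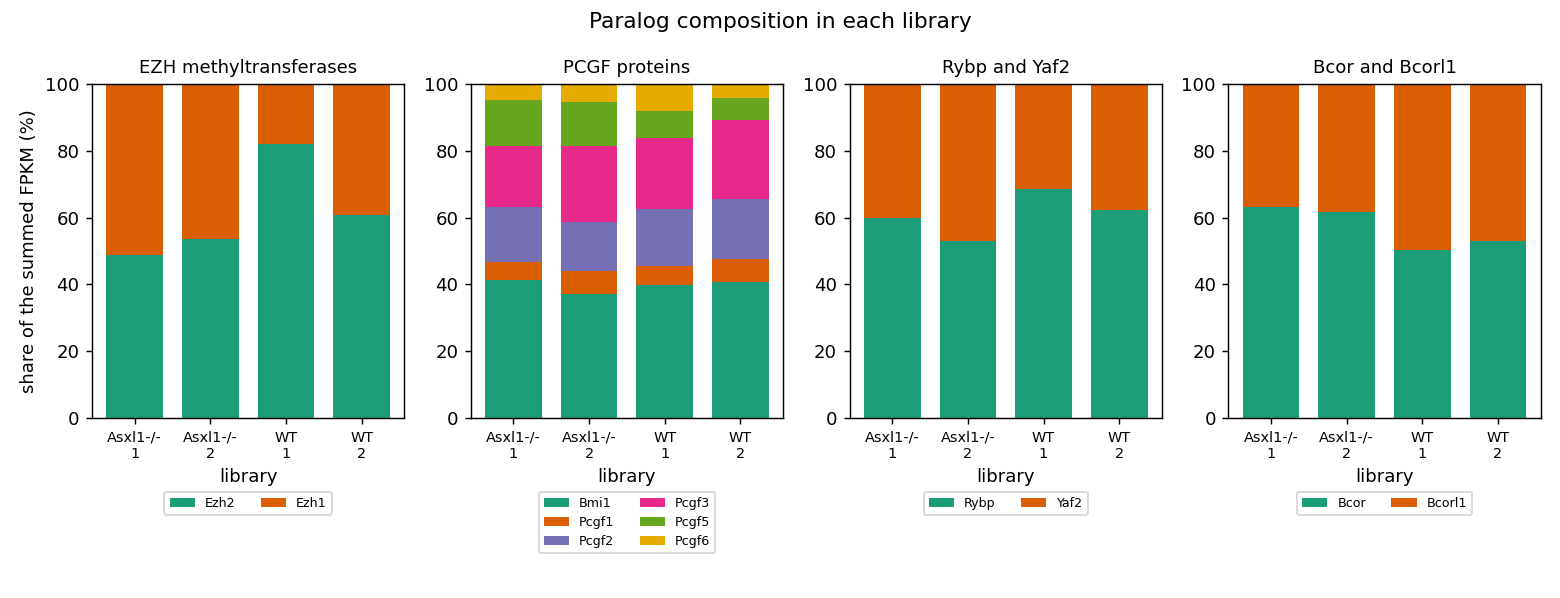
Share of each paralog in the summed FPKM of its family (vertical axis, percent) in each library, for the 4 families in which a share differed by at least 5 points with no overlap between the groups. Ezh2 and Rybp take smaller shares in Asxl1-/- than in WT libraries, and Pcgf5 and Bcor larger ones. Shares were also taken for the Rbbp, RING, CBX, PHC, Kdm6 and Polycomb-like (Mtf2, Phf1 and Phf19) families, where none met this rule. The 4 families were thus picked by these differences, and no background over other gene families was taken.

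The enzymes that remove the Polycomb marks had fold changes between -0.01 and 0.14. Signs were not stable: Usp16 was positive after median ratio and quantile scaling and reached 0.21 with chromosome medians removed, where Kdm6b was negative. Kdm6a (Utx), an H3K27 demethylase on the X chromosome, stood at 7.50 and 8.11 FPKM in Asxl1-/- libraries, against 7.25 and 6.76 FPKM in WT libraries (0.14, 95% interval -0.46 to 0.73). Kdm6b (Jmjd3), its inducible relative, stood at 8.03 and 8.20 FPKM in Asxl1-/- libraries, against 7.69 and 8.19 FPKM in WT libraries (0.03, 95% interval -0.55 to 0.61). Usp16, which takes ubiquitin off H2A in mitosis, stood at 17.1 and 20.1 FPKM in Asxl1-/- libraries, against 19.6 and 17.8 FPKM in WT libraries. These replicates lay close together, and no interval reached a change of 1 on the log2 scale.

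Genes that work with or against Polycomb gave 0 calls at an adjusted limma p under 0.05. At an unadjusted limma p under 0.05, 2.51% of all genes tested were higher and 5.41% lower. In the BAP1 complex, which removes H2A ubiquitin, 1 of 10 tested genes was lower at an unadjusted p under 0.05, Asxl1 itself. The paralog Asxl2 stood at 7.30 and 6.35 FPKM in Asxl1-/- libraries, against 4.83 and 6.01 FPKM in WT libraries, and Bap1 at 15.1 and 13.8 FPKM in Asxl1-/- libraries, against 18.1 and 16.4 FPKM in WT libraries. Of 7 other histone deubiquitinases none had an unadjusted limma p under 0.05. Of 8 partners in the Pcgf6 complex, 1 was lower at that level, the E2F partner Tfdp1, at 39.0 and 43.0 FPKM in Asxl1-/- libraries, against 65.8 and 61.6 FPKM in WT libraries.

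In a list of 15 tested genes for the trithorax H3K4 methyltransferase complexes, which oppose Polycomb, 8 (53.3%) were lower in both Asxl1-/- libraries. There 1 (6.67%) was higher, against 25.2% lower and 15.6% higher of all genes. It also holds the related genes Ash1l, among the lower, and Kmt2e, the higher one. The median log2 fold change of the 15 was -0.28, against -0.07 over all genes, and after median ratio scaling 7 (46.7%) were lower, against 20.8% of all genes. The median distance of the list from the mean of the 4 libraries was -0.21 and -0.10 in Asxl1-/- replicates 1 and 2. It was 0.43 and -0.01 in WT replicates 1 and 2, so WT replicate 1 stood furthest away. The one with an unadjusted limma p under 0.05 was Dpy30, a shared core subunit, at 26.5 FPKM in both Asxl1-/- libraries, against 49.5 and 37.9 FPKM in WT libraries. Among 6 genes of H3K27 acetylation and H3K36 methylation it was Whsc1 (Nsd2), at 4.91 and 5.76 FPKM in Asxl1-/- libraries, against 12.6 and 9.86 FPKM in WT libraries. Of 13 SWI/SNF remodeller genes 6 (46.2%) were higher in both Asxl1-/- libraries and 3 (23.1%) lower, against 15.6% and 25.2% of all genes. After median ratio scaling 7 (53.8%) were higher, against 20.1% of all genes. The median distance of these 13 genes from the mean of the libraries was 0.09 and -0.02 in Asxl1-/- replicates 1 and 2. It was -0.19 and -0.01 in WT replicates 1 and 2, so here too WT replicate 1 stood furthest away. The gene with an unadjusted limma p under 0.05 was Smarcd3, at 10.3 and 11.1 FPKM in Asxl1-/- libraries, against 6.81 and 5.89 FPKM in WT libraries.

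Of 28 textbook Polycomb target genes 18 were tested. Without overlap 2 were higher and 2 lower, against 15.6% and 25.2% of all genes. The median log2 fold change of the 18 was 0.12, against -0.07 over all genes. Unadjusted limma p was under 0.05 for Hoxb9, at 9.08 and 2.02 FPKM in Asxl1-/- libraries, against a value listed at 0 and 0.124 FPKM in WT libraries. It was also under 0.05 for the Hox cofactor Meis1, at 2.97 and 3.23 FPKM in Asxl1-/- libraries, against 8.86 and 6.34 FPKM in WT libraries. The cell cycle inhibitor gene Cdkn2b, a classical target, stood at 14.9 and 25.9 FPKM in Asxl1-/- libraries, against 73.1 and 33.5 FPKM in WT libraries. Members of this list lay on both sides, and the repressed state of a gene was not measured here.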

How the data were processed

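Total RNA was sequenced in 2 Asxl1-/- and 2 WT libraries of cultured MSPC. Per the submitters' processing notes, Cuffdiff, Cufflinks 2.2.1 and TopHat2 2.0.3 were used with the build mm10. The sources used here do not give the annotation, the kit or whether reads were stranded. The deposited FPKM table gives a level per row and library, and read depth is unknown. Its 2 value columns that match no sample were not used. The authors' deposited Cuffdiff table gives group FPKM, log2 fold changes of Asxl1-/- over WT, p-values and q-values. Starts in the table are given with 1 added; 23 of 38 member starts then equal a GENCODE transcript start. Of the members, 10 overlap another protein-coding gene (Rbbp4, Rbbp7, Mtf2, Phf1, Rnf2, Cbx6, Cbx7, L3mbtl2, Kdm2b and Usp16), and Rybp has a named pseudogene, so their values are uncertain. Within Pcgf5 lie pseudogenes, an snRNA and an antisense gene, and within Ezh2 a lincRNA and a pseudogene, so reads there could also be split or shared.

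FPKM are not counts, so log2(FPKM + 1) was fitted by lmFit and two-sided eBayes with trend (limma 3.58.1 in R 4.3.3) over 11481 symbols with a mean of at least 1 FPKM, with Benjamini-Hochberg adjustment over all of them. For a symbol with several rows the highest was kept. The fit was also run on simulated data, but its power to find changes at the spread of these libraries is not given here. Members, gene lists and tests were chosen with earlier results of these data known. Named genes are the catalytic and core members, members with an unadjusted p under 0.05, paralogs whose share differed, and from other lists genes with the smallest p. Python 3.11.15 with matplotlib 3.10.9, numpy 2.4.6 and pandas 2.3.3 served for the rest. Alternatives were leaving out each library, removing chromosome medians, a macrophage covariate, dropping genes under 300 bp, summing rows, quantile or median ratio scaling, pseudocounts of 0.1 and 0.5, filters of none or 5 FPKM, and eBayes robust or with no trend. Shares were also compared between 1 library and 1 with like macrophage marker levels.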

Additional observations from a re-analysis of the deposited data

How the results depend on the processing

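No member passed the adjusted limma threshold with all libraries or under any of the 16 other fits, and Ezh2 and Pcgf5 had the same sign in all of them and in the authors' deposited table. The sign held for 17 of 38 members in every setting and changed for 21. Genes called in the whole table numbered 3, against 1 with no filter, 0 without genes under 300 bp (918 at an unadjusted limma p under 0.05), and 1 to 8 with a library left out. Members with no overlap numbered 12, and 20 to 32 with a library left out, where a group has a single library and overlap is rarer. Those higher in Asxl1-/- numbered 4, against 8 after median ratio scaling, 10 after quantile normalization, 8 with chromosome medians removed and 7 to 11 with a library left out; those lower numbered 8, against 6 in each of the first 3 and 11 to 21. No background was taken with chromosome medians removed or with a library left out, so counts from those fits cannot be set against all genes. The background was 20.1% higher and 20.8% lower after median ratio scaling, and 20.6% and 20.1% after quantile normalization. These scalings moved the member median to 0.03 and 0.05, where that of all genes moved to 0.01 and 0.02. The Ezh2 share differed by -20.1 points, by -33.0 in the pair of libraries with few macrophage transcripts and by -7.25 in the pair with many. The Bcor share differed by 10.8 points, and by 12.8 and 8.84 in these pairs. The causes were not tested. No paired analysis was possible because nothing in the labels says that libraries with the same replicate number were matched. The number of reads is unknown, so no counting error can be given for low genes such as Scml2, Cbx7 and Phf19.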
